A study of Mus musculus with 2 samples.

Results

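The interferon-stimulated genes are a set of 39 named genes, of which 37 had a row in the count files among 32285 genes. Mx1 and Mx2 were not analysed here. The genes were taken by symbol. They fall into 5 groups by function. The first holds 11 genes, Irf1 and the interferon-inducible GTPases of the Gbp family (Gbp2 to Gbp7) and of the immunity-related GTPase (IRG) family (Iigp1, Igtp, Irgm1, Irgm2). It is called the Irf1 and GTPase list below. Where a list value is given for the GTPases or the GTPase list, Irf1 is included. The second holds 15 analysed antiviral effectors and their partners (Ifit1, Ifit2, Ifit3, Isg15, Isg20, Oas1a, Oas2, Oas3, Oasl1, Oasl2, Rsad2, Usp18, Cmpk2, Rtp4 and Ifi44), called the Ifit and Oas list below. The other groups are signalling factors (Irf7, Irf9, Stat2), sensors of nucleic acid (Ifih1, Ddx58, Ddx60, Zbp1) and 4 further genes (Bst2, Xaf1, Ifi35, Parp14).

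Interferons are secreted proteins that induce a large set of genes through JAK kinases bound to their receptors. Type I interferons (IFN-α and IFN-β) act through the receptor chains Ifnar1 and Ifnar2 and a complex that holds Stat2 and Irf9 and binds the interferon-stimulated response element (ISRE). Type II interferon (IFN-γ, encoded by Ifng) is made mainly by T cells and NK cells and acts through the gamma-activated site (GAS) to induce Irf1, the Gbp genes and the IRG genes. The programmes overlap, since most of these genes respond to both kinds of interferon to some degree.

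The libraries came from tumours of the abraded peritoneal wall of female C57BL/6 mice of 6 to 8 weeks, given syngeneic ovarian cancer cells that lack p53 and carry Myc and Hras. Mice were treated for 10 days with control IgG (7 mice) or with a neutralizing antibody to Activin A (8 mice), a ligand of the TGFβ family. The tissue of each group was pooled and sequenced as 1 droplet library of 3′ UMI counts (10x Genomics), so the design has 1 library per group and no replicate. These numbers of mice and days are those of the labels, and the study's methods give others for its sequencing experiment. A pool gives no value per mouse, all tumours came from the same cancer cell line, and the antibody cannot be told apart from any other difference between the libraries. Groups given the TGFβ antibody were not analysed here.

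There were 98174850 UMIs in the control IgG library and 74117462 in that of the antibody, and after the limits on genes, UMIs and mitochondrial share 8770 and 6386 cells were kept, with a median of 5719 and 4660 UMIs. A cell was put in a class by its marker genes: CD8 T cells (2969 cells with control IgG, 2411 with the antibody), CD4 T cells (916 and 691), NK cells (309 and 351), B cells (243 and 145), dendritic cells (211 and 162), myeloid cells (1760 and 631), fibroblasts (269 and 272) and cancer-like cells (352 and 367). T cells with UMIs of both or neither of CD4 and CD8 (1093 and 805) were kept apart. No class had a marker of another class among its 10 leading genes, and no member was among them. The gate rests on the same markers, so the absence of other markers was largely fixed in advance and is no check of the classes. CD8 and CD4 cells share their T cell markers, so between these classes it could not fail. The CD4 class was led by Cd4, Tnfrsf4 and Cd40lg. Kept cells of both libraries shared 19 barcodes. Levels are given as CPM, the UMIs of a gene per 1000000 UMIs after all cells of the class and library were added up. UMI counts of 3′ libraries need no correction for gene length. Values in parentheses after a level or a log2 ratio are 95% intervals for counting error, exact Poisson for CPM and conditional binomial for ratios. They leave out the spread between cells, between mice and between libraries, and are too narrow where cells differ by more than counting error. No difference below was tested, and a ratio is a description of these libraries. A gene was called measured in a class with at least 50 UMIs over both libraries, and higher or lower where the libraries differed by at least 1.5-fold.

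Letters of the ISRE and the GAS were looked for in the promoters of the members. RefSeq windows of GRCm38.p6, from 250 bases before to 50 bases after a start site, were found for 29 of the 39 members. The ISRE was searched as GAAA and GAAA with any 2 bases between them, and the GAS as TTC and GAA with any 3 bases between them, on both strands. ISRE letters were present for 18 of 29 members (62.1%), against 3.99% of all 27025 genes and 3.44% of all 32851 windows. GAS letters were present for 10 of 29 members (34.5%), against 9.55% of all genes and 8.3% of all windows. By list, 7 of 8 matched genes of the Irf1 and GTPase list held the ISRE and 5 of 8 the GAS, and 6 of 12 of the Ifit and Oas list held the ISRE and 3 of 12 the GAS, so the letters of both elements were found in both lists. In 1 member an ISRE and a GAS match overlapped. Of the 29 members 22 held letters of either element, and Cmpk2, Oasl1, Oasl2 and Irf7 were among those that held none. The 250 bases before the start are shown for 5 members that held a match, on the strand of the gene, with the matches in capitals.
Rsad2: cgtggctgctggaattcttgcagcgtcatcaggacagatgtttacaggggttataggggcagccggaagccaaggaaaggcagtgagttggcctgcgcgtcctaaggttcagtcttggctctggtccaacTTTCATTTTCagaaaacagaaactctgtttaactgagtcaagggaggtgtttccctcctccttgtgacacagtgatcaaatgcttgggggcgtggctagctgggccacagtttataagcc
Ifit1: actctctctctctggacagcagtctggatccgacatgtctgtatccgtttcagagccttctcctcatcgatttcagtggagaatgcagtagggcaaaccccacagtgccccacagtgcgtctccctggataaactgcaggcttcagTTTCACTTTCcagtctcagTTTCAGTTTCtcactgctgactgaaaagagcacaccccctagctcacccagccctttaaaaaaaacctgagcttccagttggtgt
Isg15: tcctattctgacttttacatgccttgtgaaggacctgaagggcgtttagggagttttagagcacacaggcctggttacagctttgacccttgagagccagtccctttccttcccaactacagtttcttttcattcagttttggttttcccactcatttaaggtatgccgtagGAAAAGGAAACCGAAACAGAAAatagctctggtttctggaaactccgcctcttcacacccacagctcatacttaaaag
Irf1: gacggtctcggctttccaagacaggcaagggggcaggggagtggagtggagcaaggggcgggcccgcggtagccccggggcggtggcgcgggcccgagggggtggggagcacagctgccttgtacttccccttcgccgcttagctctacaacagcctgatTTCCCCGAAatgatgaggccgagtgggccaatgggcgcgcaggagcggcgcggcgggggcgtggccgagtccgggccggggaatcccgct
Gbp2: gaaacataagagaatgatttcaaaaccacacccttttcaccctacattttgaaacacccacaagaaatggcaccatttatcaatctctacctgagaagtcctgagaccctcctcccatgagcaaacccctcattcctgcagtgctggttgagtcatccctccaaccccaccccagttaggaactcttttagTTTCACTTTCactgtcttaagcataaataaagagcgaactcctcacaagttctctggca

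Rsad2, an enzyme that makes a chain-terminating nucleotide against viruses, lies on the minus strand at chr12:26456453-26456702 and held 1 ISRE match that began 120 bases before the start. Ifit1, which binds viral RNA, lies on the plus strand at chr19:34640639-34640888 and held 2, at 104 and 85 bases. Isg15, a ubiquitin-like modifier, lies on the minus strand at chr4:156200819-156201068 and held 3 overlapping matches, at 78, 72 and 66 bases, printed as a single run of capitals. Irf1, a transcription factor, lies on the plus strand at chr11:53769764-53770013 and held no ISRE letters but a GAS match at 90 bases, in the one shown of its 2 windows. Gbp2, a guanylate-binding protein, lies on the plus strand at chr3:142620413-142620662 and held 1 ISRE match at 59 bases. A match describes letters of the window and is not a measured binding site.

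The levels of the members differed widely by cell class. For 29 of 37 members the class with the highest CPM was the same with control IgG and with the antibody, while the order of the other classes often changed, as for Gbp5. With control IgG, 11 members were highest in the dendritic class, 11 in the myeloid class and 11 in fibroblasts. With the antibody these counts were 10, 15 and 7. The cancer-like class had the lowest level of 15 and 17 members. A level in CPM is a share of the UMIs of the class, and cancer-like cells were the deepest, at a median of 55380.5 and 55191 UMIs. Per cell they held a mean of 32.8 and 29.2 UMIs of the Irf1 and GTPase list, against 3.43 and 3.48 in CD8 cells. NK cells had the lowest level of 12 and 5 members, and B cells of 7 and 11. Such counts were not computed over all genes, so these have no background beside them. With the antibody some highest classes were near ties. Oasl2 stood at 87.4 CPM in myeloid cells and 85.3 CPM in fibroblasts, and Xaf1 at 58.2 and 57.6 CPM.

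**Figure D1:**
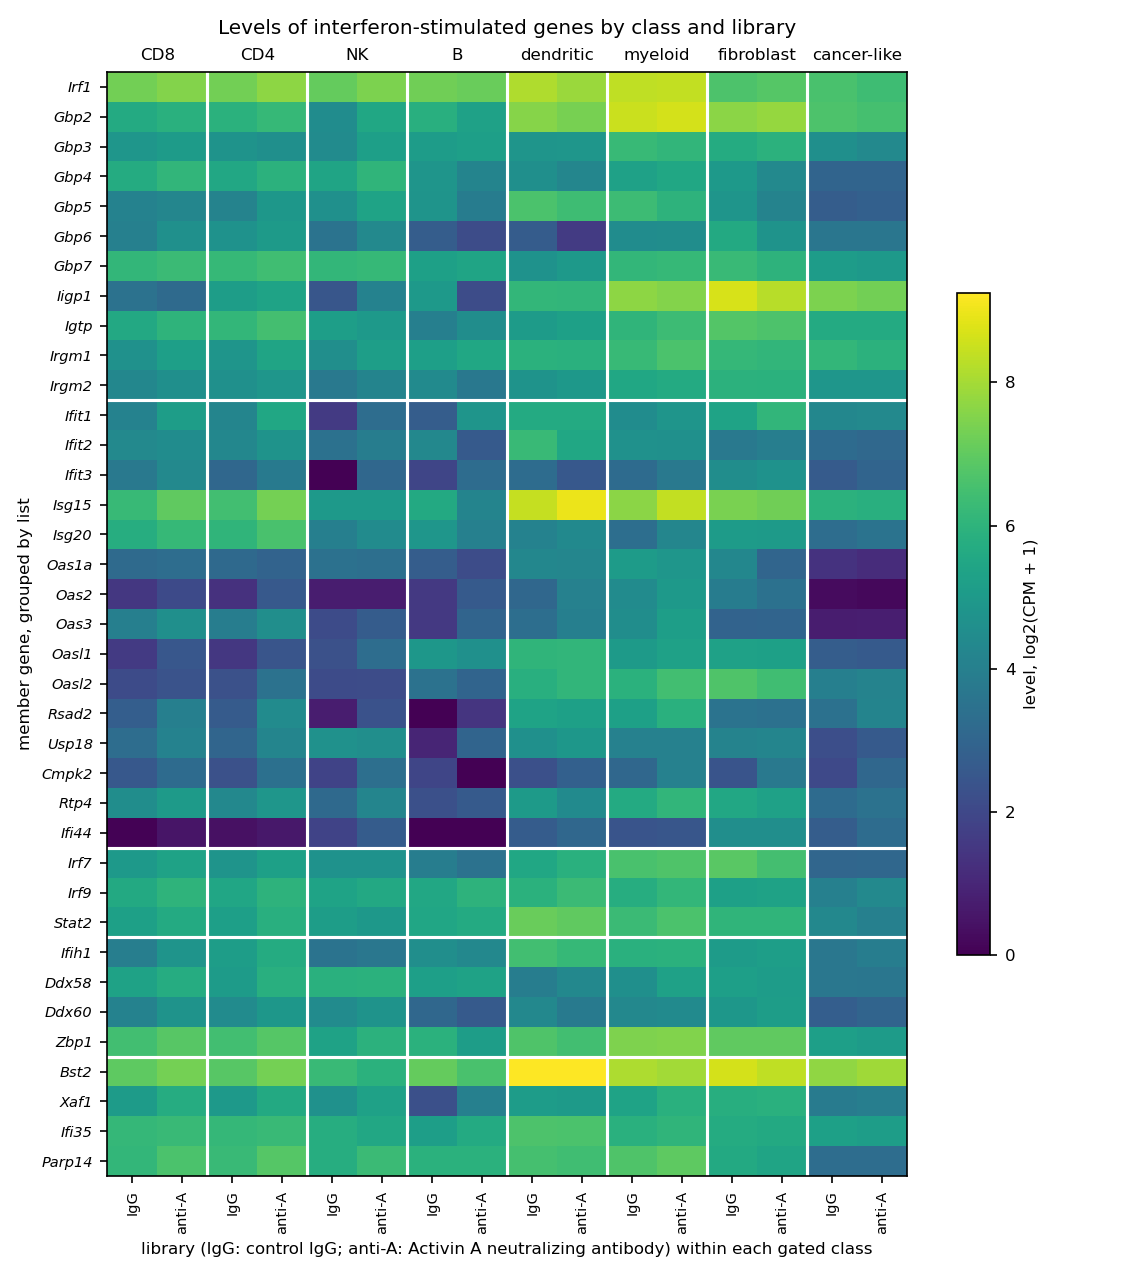
Colour shows the level, log2(CPM + 1), of 37 interferon-stimulated genes (rows, grouped by function) in 8 gated classes, each with its control IgG and antibody library side by side. Bst2 in the dendritic class is the brightest cell pair, at 605 and 608 CPM, and the cancer-like columns are dark for most genes.

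Among the GTPases, Gbp2 was highest in the myeloid class, at 361 CPM (351 to 371) with control IgG and 397 CPM (378 to 416) with the antibody, followed by fibroblasts at 199 (187 to 211) and 220 CPM (206 to 234). The dendritic class held 188 and 161 CPM, the cancer-like class 100 and 91.8 CPM, and the CD4, CD8, B and NK classes between 21.6 and 72.5 CPM in both libraries. In both libraries the interval of the myeloid class lay apart from those of every other class. Iigp1, an IRG that attacks the vacuoles of intracellular parasites, was highest in fibroblasts, at 411 CPM (394 to 428) and 306 CPM (290 to 323). Myeloid cells followed at 203 and 186 CPM and cancer-like cells at 169 and 154 CPM. CD8 cells held 10.1 and 8.24 CPM of Iigp1. Igtp (Irgm3), a regulator of the other IRG proteins, was also highest in fibroblasts, at 108 CPM (99.5 to 117) and 101 CPM (91.7 to 111), followed by CD4 cells at 69.0 and 87.8 CPM. Myeloid cells held 66.1 and 80.6 CPM of Igtp, cancer-like cells 49.8 and 49.2, CD8 cells 46.4 and 63.0, NK cells 35.4 and 30.6, dendritic cells 32.5 and 36.9, and B cells 15 and 22.3 CPM. With the antibody the intervals of Igtp in CD4 cells (78.9 to 97.5) and fibroblasts overlapped.

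Irf1 was highest in the myeloid class, at 330 CPM (320 to 340) and 333 CPM (316 to 352), and next in the dendritic class, at 285 CPM (261 to 311) and 230 CPM (206 to 256). CD4, CD8, B and NK cells followed within a narrow range, from 134 to 156 CPM with control IgG and from 141 to 205 CPM with the antibody. The intervals of CD4 (146 to 166) and CD8 (148 to 159) overlapped with control IgG, so their order was not settled. Fibroblasts held 101 and 110 CPM, and cancer-like cells 95.6 and 81.5 CPM.

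In the Ifit and Oas list Isg15 had the highest levels. It was highest in the dendritic class, at 345 CPM (318 to 373) with control IgG and 503 CPM (468 to 541) with the antibody, then in the myeloid class, at 200 CPM (193 to 208) and 338 CPM (320 to 356), and in fibroblasts, at 167 and 149 CPM. CD4 cells held 86.3 and 158 CPM, CD8 cells 74.1 and 125 CPM, cancer-like cells 60.5 and 55.8 CPM, B cells 47.9 and 17.2 CPM, and NK cells 30.2 and 30.6 CPM. Oasl2, an OAS-like protein that enhances RNA sensing, ranged from 103 and 85.3 CPM in fibroblasts, 59.3 and 87.4 CPM in myeloid cells and 56.8 and 66.3 CPM in dendritic cells down to 15.1 and 16.5 CPM in the cancer-like class, 10.3 and 6.87 CPM in B cells, 3.89 and 10.1 CPM in CD4 cells, 3.31 and 4.16 CPM in CD8 cells and 3.28 and 3.4 CPM in NK cells. Ifit3 was a gene of low level in all classes, from 21.9 and 25 CPM in fibroblasts and 12.2 and 19.6 CPM in CD8 cells through 8.46 and 12.2 CPM in myeloid cells, 8.66 and 4.79 CPM in dendritic cells, 7.61 and 12.6 CPM in CD4 cells and 5.23 and 6.82 CPM in the cancer-like class to 2.82 and 8.58 CPM in B cells. NK cells had 0 Ifit3 UMIs with control IgG, with an interval that reaches 2.42 CPM, and 7.49 CPM with the antibody. Reads of Ifit3 and its near-identical copy Ifit3b, of Oas1a and Oas1g, and of some Gbp genes (Gbp4, Gbp6 and their neighbours) can be split or lost in counting, so their levels are uncertain.

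Of the signalling factors, Irf7, the main driver of IFN-α genes, was highest in fibroblasts with control IgG (118 CPM, 109 to 128) and in myeloid cells with the antibody (103 CPM, 93.7 to 114). In the antibody library this interval overlapped that of fibroblasts (80.8 to 98.8). Dendritic cells held 44.9 and 57.4 CPM, CD8 cells 30.9 and 39.5, CD4 cells 26.9 and 37.6, NK cells 25.6 and 25.2, B cells 14.1 and 10.3, and cancer-like cells 7.39 and 7.48 CPM of Irf7. Stat2, a transcription factor of the type I interferon complex, was highest in dendritic cells, at 140 CPM (123 to 158) and 125 CPM (108 to 145). Among the sensors, Zbp1, which binds Z-form nucleic acid, was highest in myeloid cells at 174 CPM (167 to 182) and 181 CPM (168 to 194). Bst2 (tetherin), which holds budding virus at the membrane, had the highest level of all members, 605 CPM (570 to 642) and 608 CPM (569 to 649) in the dendritic class. Plasmacytoid dendritic cells, for which Bst2 is a known surface marker, held 2990 and 2835 CPM of it, in 40 and 33 cells, against 211 and 230 CPM in conventional dendritic cells. Leading members differed by class, with Bst2 and Isg15 leading in dendritic cells and Iigp1 and Bst2 in fibroblasts.

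The comparison of the libraries asked how neutralizing Activin A changed the tumour's cells. In CD8 cells the Ifit and Oas list was higher in the antibody library, by more than the Irf1 and GTPase list. Of the 36 members measured there, 13 were at least 1.5-fold higher and 0 lower, where 2.90% of all 11566 measured genes were higher and 3.23% lower. Of the Ifit and Oas list 9 of 14 measured genes were higher, with a median log2 ratio of 0.72 and a range of 0.13 to 1.35. Of the Irf1 and GTPase list 1 of 11 was higher, with a median of 0.27 and a range of -0.30 to 0.64. The median of all genes was 0.03.

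Rsad2 had the largest ratio in CD8 cells, with 5.82 CPM (4.83 to 6.94) in the control IgG library and 14.8 CPM (12.9 to 16.9) in the antibody library, for a log2 ratio of 1.35 (1.02 to 1.68). Oasl1, which limits the translation of Irf7, stood at 1.94 CPM (1.39 to 2.63) and 4.72 CPM (3.66 to 5.99), for a log2 ratio of 1.28 (0.70 to 1.88). Ifit1 stood at 16.2 CPM (14.5 to 18) and 34.4 CPM (31.4 to 37.6), for a log2 ratio of 1.09 (0.89 to 1.29). The counting intervals of the libraries did not overlap for any of these 3 genes. Usp18, which removes Isg15 from proteins and damps the type I receptor, had a log2 ratio of 0.84 (0.55 to 1.12), and Isg15 itself of 0.75 (0.65 to 0.85). Ifit3 had 0.68 (0.43 to 0.93). Oasl2 (0.33, -0.20 to 0.85), Ifit2 (0.18, -0.04 to 0.39) and Oas1a (0.13, -0.21 to 0.48) had intervals that include 0. Ifi44 had 1 and 6 UMIs and was not measured.

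In the Irf1 and GTPase list Irf1 stood at 153 CPM (148 to 159) with control IgG and 184 CPM (177 to 192) with the antibody in CD8 cells, for a log2 ratio of 0.27 (0.19 to 0.34). Gbp6 was the member past 1.5-fold, at 15.5 and 24.2 CPM (log2 ratio 0.64, 0.42 to 0.87). Gbp2 had a log2 ratio of 0.20 (0.06 to 0.33) and Igtp of 0.44 (0.31 to 0.57). Iigp1 was the only member of the 36 with a lower level in the antibody library, at 10.1 and 8.24 CPM (-0.30 on the log2 scale, -0.63 to 0.04). Of the remaining groups, Ifih1 (MDA5, a sensor of long double-stranded RNA) stood at 14.7 and 26.6 CPM (0.86, 0.64 to 1.08), Ddx60 at 16.1 and 26.1 CPM (0.70, 0.49 to 0.92) and Xaf1 at 32.4 and 51.7 CPM (0.67, 0.52 to 0.83). These were the 3 genes past 1.5-fold outside both lists. Irf7 (0.35), Irf9 (0.42) and Stat2 (0.40) were closer to the GTPases than to the Ifit and Oas median.

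CD4 cells showed the same order of the lists with larger values. Of 34 measured members 13 were higher and 0 lower, where 4.17% of all 9571 measured genes were higher and 3.07% lower. Of the Ifit and Oas list 9 of 12 measured genes were higher, with a median of 0.80, and of the Irf1 and GTPase list 1 of 11, with a median of 0.35, while the median of all genes was 0.02. Rsad2 stood at 5.24 CPM (3.56 to 7.44) with control IgG and 21.3 CPM (17 to 26.3) with the antibody, for a log2 ratio of 2.02 (1.41 to 2.66). Ifit1 stood at 17.3 CPM (14.1 to 20.9) and 45 CPM (38.7 to 52.1), for a log2 ratio of 1.38 (1.03 to 1.75). Oasl2 also had a log2 ratio of 1.38, with a wider interval (0.61 to 2.19) from 23 and 41 UMIs. Intervals of all 3 genes lay apart between the libraries. Isg15 had a log2 ratio of 0.87 (0.70 to 1.04), Ifit3 of 0.73 (0.12 to 1.34), Irf1 of 0.40 (0.26 to 0.53), Gbp2 of 0.31 (0.08 to 0.54), Igtp of 0.35 (0.14 to 0.56) and Irf7 of 0.48 (0.15 to 0.81). Gbp5, at 16.4 and 28.5 CPM (0.79, 0.39 to 1.2), was the GTPase past 1.5-fold, and a different one from that in CD8 cells. Oas1a (-0.25, -0.99 to 0.46) and Gbp3 (-0.15, -0.53 to 0.23) were the 2 measured members with a negative ratio. T cells with both or neither of the CD4 and CD8 genes had medians of 0.26 for the Irf1 and GTPase list and 0.85 for the Ifit and Oas list.

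**Figure D2:**
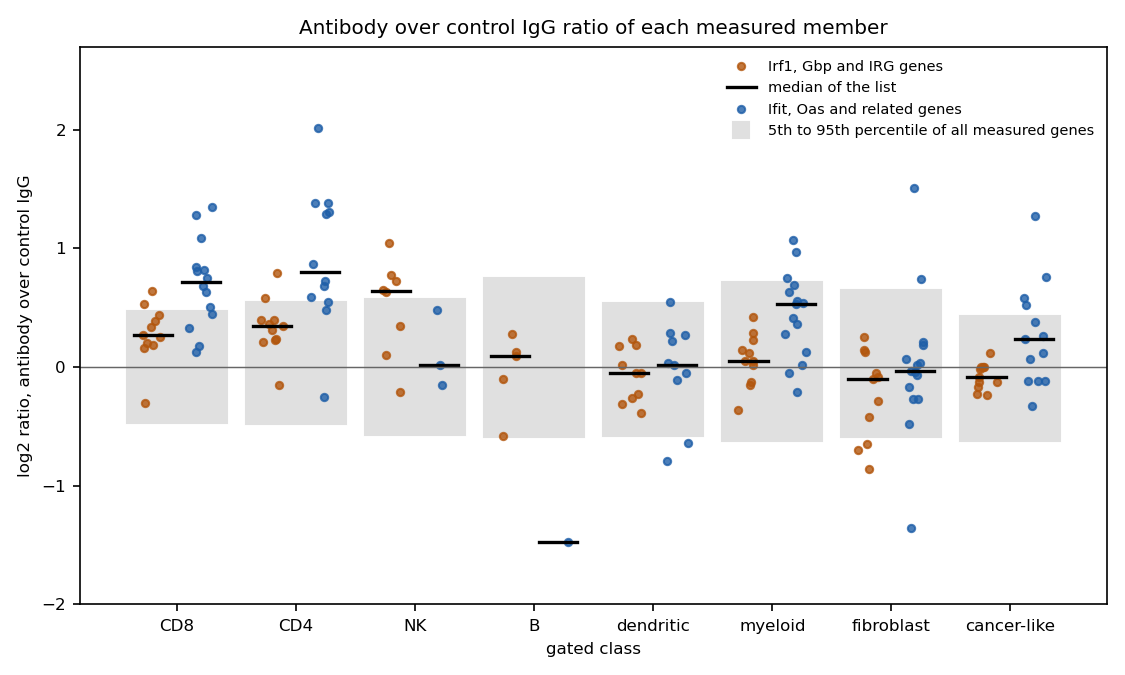
Each point is a measured gene's log2 ratio of CPM, antibody over control IgG, in a gated class, with the Irf1, Gbp and IRG genes in orange, the Ifit, Oas and related genes in blue, black bars for list medians and grey bands for the 5th to 95th percentile of all measured genes of the class. The blue medians lie at 0.72, 0.80 and 0.53 in CD8, CD4 and myeloid cells, above the orange ones at 0.27, 0.35 and 0.05, and in NK cells the orange median of 0.64 is the higher one, with 3 blue genes measured.

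RNA outside cells was also higher in the antibody library for both lists. In barcodes with fewer than 100 UMIs, which held 6.39% and 6.23% of the UMIs, the Ifit and Oas list summed to 199 CPM with control IgG and 281 CPM with the antibody, and the Irf1 and GTPase list to 450 and 583 CPM. In CD8 cells the sums were 247 CPM (240 to 254) and 388 CPM (378 to 399) for the Ifit and Oas list, and 482 and 592 CPM for the other. With this profile subtracted at 5% of the UMIs of each cell, the medians of CD8 cells were 0.74 and 0.26 and those of CD4 cells 0.83 and 0.34. The share of 5% was assumed, not measured, and the part of free RNA in the ratios was not tested further. T cells of both classes were also split by Ccl5, a chemokine of effector cells. CD8 cells with a Ccl5 UMI, 95.3% and 95.8% of the class, had medians of 0.73 and 0.28, while the others (140 and 101 cells) had -0.29 over 2 measured genes and -0.26 over 6. CD4 cells with Ccl5 (71.3% and 67%) had 0.90 and 0.33, and those without had 0.14 over 6 measured genes of the Ifit and Oas list and 0.33 over 9 of the other. With the mix of these cells held at that of control IgG, the CD4 medians were 0.81 and 0.35.

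In the myeloid class the Ifit and Oas list was again the higher one in the antibody library. The Irf1 and GTPase list stayed near 0 over the class as a whole. Of 37 measured members 6 were higher and 0 lower, where 7.27% of all 10579 measured genes were higher and 5.53% lower. The Ifit and Oas list had a median of 0.53 with 5 of 15 genes higher, and the Irf1 and GTPase list a median of 0.05 with 0 of 11. The share of all members higher was therefore nearer to the background than in the T cell classes. Cmpk2, a mitochondrial nucleotide kinase next to Rsad2 in the genome, stood at 7.42 CPM (6.04 to 9.02) and 15.6 CPM (12 to 19.9), for a log2 ratio of 1.07 (0.60 to 1.54). Isg20, an exonuclease, stood at 9.2 CPM (7.65 to 11) and 18 CPM (14.2 to 22.6), for a log2 ratio of 0.97 (0.54 to 1.40). Isg15 had a log2 ratio of 0.75 (0.66 to 0.85). In each of these 3 genes the antibody library was the higher one with intervals apart. Oasl2 (0.56, 0.38 to 0.74) and Ifit3 (0.53, 0.02 to 1.02) were close to the median, while Irf1 (0.02, -0.07 to 0.10), Gbp2 (0.14, 0.05 to 0.22), Igtp (0.29, 0.10 to 0.47) and Irf7 (0.11, -0.05 to 0.27) were below it.

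The makeup of the myeloid class differed between the libraries beside these values. Its summed myeloid markers stood at 7766 CPM with control IgG and 4611 CPM with the antibody, and macrophages made up 74.7% of its cells (1314) and 54.7% (345), monocytes 24% (423) and 41.4% (261). Shares over all genes were not computed for the kinds of myeloid cells, so counts of genes by kind have no background here. In macrophages the Ifit and Oas list had a median of 0.41 and a range of -0.57 to 1.28, and 1 gene had an interval below 0. Of its 15 genes 6 were higher. Among them were Cmpk2 (6.05 and 14.7 CPM, 1.28, 0.63 to 1.90) and Rsad2 (34.5 and 72.5 CPM, 1.07, 0.80 to 1.34). In monocytes the median was 0.03 with 0 of 14 higher and 2 lower. There Ifit1 stood at 46.2 and 23.8 CPM (-0.96, -1.53 to -0.42) and Rsad2 at 48.3 and 31.7 CPM (-0.61, -1.12 to -0.12), both lower, while Isg15 stood at 333 and 479 CPM (0.52, 0.38 to 0.66). Rsad2 thus had opposite signs in macrophages and monocytes, a difference that was not tested. The Irf1 and GTPase list had a median of 0.18 in macrophages, and a log2 ratio of its sums of 0.14 (0.09 to 0.20). In monocytes these values were -0.17 and -0.11 (-0.19 to -0.04), so the signs of this list were opposite too. With the mix of kinds held at that of control IgG, the class had a median of 0.36 for the Ifit and Oas list and 0.09 for the GTPases. A myeloid cell took the kind of its highest marker score, with no margin. Neutrophils, 21 and 25 cells with 77802 and 273539 UMIs summed, had lower values in the antibody library. The part of depth and of the assignment in this was not tested. In neutrophils the Irf1 and GTPase list summed to 2943 CPM (2574 to 3350) and 545 CPM (461 to 640), or -2.43 on the log2 scale (-2.74 to -2.13). Their Ifit and Oas list summed to 1491 and 669 CPM (-1.16, -1.50 to -0.81), and the 3 members measured in them were all lower.

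NK cells had the reverse order of the list medians, on few measured genes. Of 21 measured members 7 were higher and 0 lower, where 4.44% of all 7021 measured genes were higher and 4.73% lower, and 5 of the 7 were GTPases. The Irf1 and GTPase list had a median of 0.64 over 8 measured genes. Gbp2 stood at 21.6 CPM (14.9 to 30.4) and 44.9 CPM (34.7 to 57.2), for a log2 ratio of 1.05 (0.43 to 1.70). Gbp3 stood at 21 and 36.1 CPM (0.78, 0.12 to 1.46) and Gbp5 at 24.3 and 40.2 CPM (0.73, 0.11 to 1.36). Irf1 had a log2 ratio of 0.35 (0.08 to 0.63), Igtp of -0.21 (-0.81 to 0.39) and Irf7 of -0.02 (-0.71 to 0.67). Only 3 genes of the Ifit and Oas list were measured, and their median was 0.02. With no filter on UMIs the median of this list was 0.64, level with the GTPases. Summed over all 15 genes, that list stood at 117 CPM (100 to 135) and 169 CPM (149 to 192), for a log2 ratio of 0.54 (0.26 to 0.82). The summed Irf1 and GTPase list was close to this, at 0.47. No UMI of the Ifit and Oas list was held by 65.7% and 69.5% of NK cells, and 1 cell held 10.7% and 8.84% of its UMIs. Per 10000 UMIs it stood at 3.72 and 4.01 at the 90th percentile of cells and at 9.49 and 29.6 at the 99th. A single NK cell held 6.33% of the UMIs of the Irf1 and GTPase list in the antibody library. Without the cell with most list UMIs of each library 3 members were higher.

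In B cells, the shallowest class, 13 members were measured, of which 0 were higher and 2 lower, where 9.94% of all 4680 measured genes were higher and 5.02% lower. Isg15 stood at 47.9 CPM (35.7 to 63) with control IgG and 17.2 CPM (8.23 to 31.6) with the antibody, for a log2 ratio of -1.48 (-2.62 to -0.49). Zbp1 stood at 59.2 CPM (45.5 to 75.7) and 34.3 CPM (21 to 53), for a log2 ratio of -0.79 (-1.59 to -0.04). Isg15 was the only gene of the Ifit and Oas list measured there, from 51 and 10 UMIs. The Irf1 and GTPase list had a positive median over 5 genes (0.09) but a negative ratio of its sums over 11 genes (-0.24, -0.48 to -0.01), and Irf1 (-0.10) and Gbp2 (-0.58, -1.35 to 0.15) had intervals that include 0.

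In dendritic cells, the class with the highest Isg15, 31 members were measured and the ratios were small. 0 were at least 1.5-fold higher and 2 were lower, where 4.18% of all 6956 measured genes were higher and 4.76% lower. The medians were -0.05 for the Irf1 and GTPase list and 0.02 for the Ifit and Oas list. Ifit2 stood at 76.8 CPM (64.7 to 90.6) with control IgG and 44.4 CPM (34.3 to 56.6) with the antibody, for a log2 ratio of -0.79 (-1.24 to -0.36), and Rtp4 at 31.9 and 20.5 CPM (-0.64, -1.32 to 0.02). Isg15 went the other way, with a log2 ratio of 0.55 (0.39 to 0.70). Isg15 UMIs were found in 47.9% of dendritic cells with control IgG and 43.2% with the antibody. With each cell thinned to the same depth these shares were 25.1% and 24.6%. The tenth of cells with most UMIs of the Ifit and Oas list held 64.4% and 72.8% of them. A single cell held 13.6% and 16.1%. The part of such cells in the Isg15 ratio was not tested. Irf1 had a log2 ratio of -0.31 (-0.51 to -0.11), Gbp2 of -0.23 (-0.47 to 0.01), Igtp of 0.19 (-0.37 to 0.74), Oasl2 of 0.22 (-0.19 to 0.64) and Irf7 of 0.35 (-0.10 to 0.81). Conventional dendritic cells alone (171 and 129 cells) had medians of -0.07 and 0.04.

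In fibroblasts several GTPases were lower in the antibody library. Of 37 measured members 2 were higher and 4 lower, where 6.57% of all 10959 measured genes were higher and 5.08% lower. The Irf1 and GTPase list had a median of -0.10 with 3 of 11 genes lower, and the Ifit and Oas list a median of -0.03 with 2 higher and 1 lower. Oas1a, an enzyme that makes the activator of RNase L, stood at 18.3 CPM (14.8 to 22.3) and 7.11 CPM (4.83 to 10.1), for a log2 ratio of -1.36 (-2.0 to -0.77). Gbp6 stood at 47.6 CPM (41.9 to 53.8) and 26.2 CPM (21.6 to 31.4), for a log2 ratio of -0.86 (-1.19 to -0.54), and Gbp5 at 27.2 and 16.7 CPM (-0.70, -1.13 to -0.28). Gbp4 was the fourth lower gene (-0.65, -1.04 to -0.26). Iigp1 had a log2 ratio of -0.42 (-0.52 to -0.33), short of 1.5-fold. Cmpk2 at 4.34 CPM (2.75 to 6.51) and 12.4 CPM (9.31 to 16.2), for a log2 ratio of 1.51 (0.78 to 2.28), and Ifit1 at 39.8 CPM (34.6 to 45.6) and 66.3 CPM (58.9 to 74.4), 0.74 (0.47 to 1.00), were the 2 higher genes. Irf1 (0.13, -0.06 to 0.31) and Gbp2 (0.14, 0.02 to 0.27) did not share the direction of Gbp4 to Gbp6, and Igtp had -0.10 (-0.28 to 0.08), Isg15 -0.17 (-0.31 to -0.02), Ifit3 0.19 (-0.20 to 0.58), Oasl2 -0.27 (-0.47 to -0.08) and Irf7 -0.40 (-0.58 to -0.21). Summed markers of immune cells in the fibroblast class were lower too. T cell markers stood at 159 and 94 CPM and myeloid markers at 112 and 64.5 CPM. Conventional dendritic markers stood at 150 and 97.7 CPM and plasmacytoid markers at 14.7 and 4.59 CPM. Cancer-like markers went the other way, at 372 and 534 CPM, and mesothelial markers stood at 372 and 382 CPM. The part of such cells in these values was not tested. The fibroblasts of the antibody library were shallower, at a median of 10638 UMIs against 17524. The tenth of cells with most UMIs of the Irf1 and GTPase list held 52.2% of them against 36.9%. As a mean of the CPM of single cells, the median of the GTPase list was -0.53, with 7 members lower. No share over all genes was computed for that setting.

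In cancer-like cells 35 members were measured, of which 2 were higher and 0 lower, where 2.94% of all 12310 measured genes were higher and 5.61% lower. Cmpk2 stood at 3.08 CPM (2.35 to 3.96) and 7.43 CPM (6.28 to 8.73), for a log2 ratio of 1.27 (0.83 to 1.73). Its genomic neighbour Rsad2 stood at 9.95 CPM (8.6 to 11.5) and 16.9 CPM (15.1 to 18.8), for a log2 ratio of 0.76 (0.50 to 1.03). Few cells held these genes. Rsad2 UMIs were found in 6.53% of cancer-like cells with control IgG and 6.27% with the antibody, and Cmpk2 UMIs in 5.11% and 8.72%. The tenth of cells with most list UMIs held 75% of the UMIs of the Ifit and Oas list with control IgG and 82.8% with the antibody, and without the cell with most list UMIs of each library 1 member was higher. The list medians were 0.24 for the Ifit and Oas list and -0.08 for the GTPases. Irf1 had a log2 ratio of -0.23 (-0.33 to -0.13), Gbp2 of -0.13 (-0.22 to -0.04), Igtp of -0.02 (-0.15 to 0.11), Ifit3 of 0.38 (0.00 to 0.77), Isg15 of -0.12 (-0.24 to 0.00), Oasl2 of 0.12 (-0.11 to 0.35) and Irf7 of 0.02 (-0.32 to 0.36).

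The lists differed in how their UMIs were spread over the cells of a class. In CD8 cells with control IgG the tenth of cells with most UMIs of the Ifit and Oas list held 58.5% of them, and in the antibody library 65.3%. For the Irf1 and GTPase list these shares were 31.7% and 32.6%. The Fano factor, the variance of UMIs per cell over their mean, stood at 9.45 and 14.2 for the Ifit and Oas list against 3.47 and 3.53 for the Irf1 and GTPase list. UMIs of the Irf1 and GTPase list, Irf1 included, were thus found in most CD8 cells (11.3% and 10.9% of cells held none). No UMI of the Ifit and Oas list was held by 44.9% and 46% of cells. Its mean was 1.76 and 2.29 UMIs per CD8 cell, against 3.43 and 3.48 for the Irf1 and GTPase list. A lower mean leaves more cells at 0, and its part in these shares was not tested.

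In CD8 cells the median cell held 0.928 UMIs of the Ifit and Oas list per 10000 with control IgG and 1.05 with the antibody. With so many cells at 0, this median lies at the level of about 1 UMI per cell and can show little of a shift. At the 90th percentile of cells the values were 6.17 and 10.8, and at the 99th 41 and 59.6. The GTPase list stood at 4.21 and 5.04 at the median, 11.5 and 14.1 at the 90th percentile and 28 and 31.8 at the 99th. CD4 cells had the Ifit and Oas list at 1.07 and 1.39 at the median and at 6.54 and 12.2 at the 90th percentile, with 36 and 70.7 at the 99th. In myeloid cells that list stood at 2.88 and 3.98 at the median and 12.6 and 19.3 at the 90th percentile, with 57.2 and 104 at the 99th. The Fano factors of CD4 cells were 8.35 and 15 for the Ifit and Oas list and 5.5 and 5.67 for the GTPases.

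**Figure D3:**
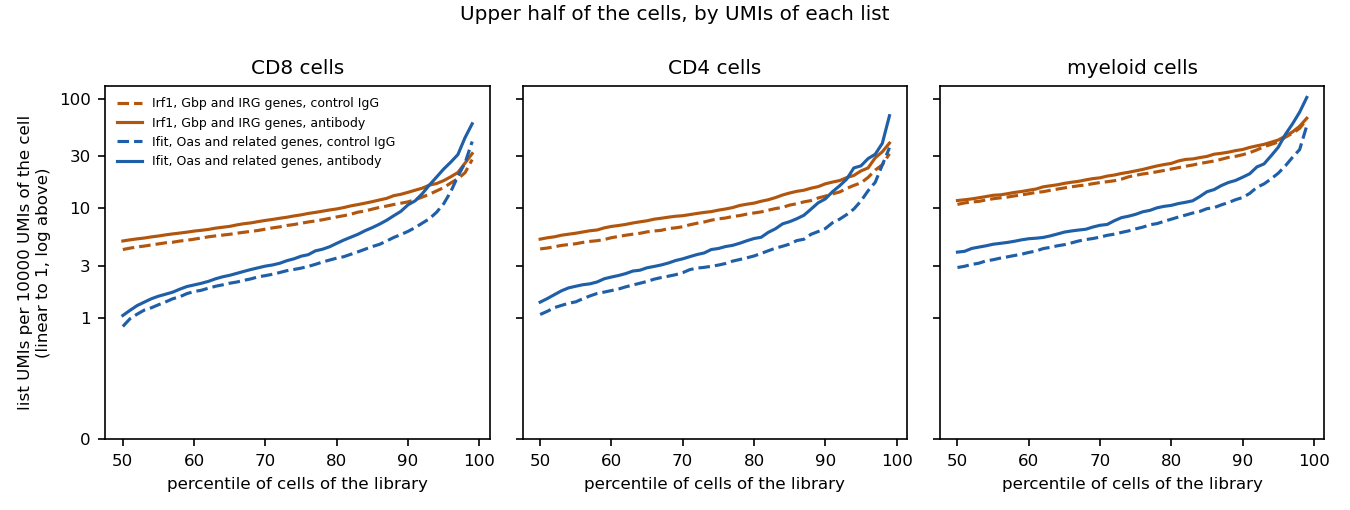
List UMIs per 10000 UMIs of a cell (vertical axis, linear to 1 and logarithmic above) against the percentile of cells in the library, from the 50th to the 99th, in CD8, CD4 and myeloid cells. Solid lines are the antibody library, dashed lines control IgG, orange the Irf1, Gbp and IRG genes and blue the Ifit, Oas and related genes. In CD8 cells the blue lines stand at 0.928 and 1.05 at the median, near 1 UMI per cell, and at 6.17 and 10.8 at the 90th percentile, and the orange lines at 11.5 and 14.1 there.

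Cells with a UMI of Ifit1, a gene chosen for this after its values were seen, made up 5.59% of CD8 cells with control IgG (166 cells) and 8.79% with the antibody (212 cells). After each cell was thinned to 2000 UMIs, with 38 and 55 shallower cells left out, these shares were 3% and 5.57%. In CD4 cells they were 5.57% and 9.41% at full depth and 2.86% and 5.95% after thinning. In NK cells the shares were 0.971% and 2.28% and in B cells 2.47% and 2.07%, the lowest of the classes, at a median depth of 3637 and 3428 UMIs and of 2881 and 2786 UMIs, against 5417 and 4599 in CD8 cells. Rsad2 UMIs were found in 2.63% and 4.19% of CD8 cells, thinned to 1.28% and 2.41%. Irf1 UMIs were found in 57.8% and 57.2% of CD8 cells, thinned to 27.9% and 30.8%.

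CD8 cells with an Ifit1 UMI held more of every list than those without, at like depth (median 5393 against 5418 UMIs with control IgG, and 4582 against 4604 with the antibody). With Ifit1 itself left out, the Ifit and Oas list summed to 1346 CPM in cells with Ifit1 and 167 CPM in cells without in the control IgG library, for a log2 ratio of 3.02 (2.93 to 3.10), and the ratio was 3.35 in the antibody library. The Irf1 and GTPase list had log2 ratios of 1.23 (1.15 to 1.32) and 1.48. Rsad2 was 5.12 (4.56 to 5.70) and 5.49 (5.0 to 6.02) higher on the log2 scale in cells with Ifit1, and Irf1 by 0.26 (0.05 to 0.46) and 0.34 (0.15 to 0.52). Ifng was level within its interval with control IgG (0.07, -0.18 to 0.31) and 0.43 (0.21 to 0.64) higher with the antibody. UMIs of the Ifit and Oas list were thus concentrated in the same CD8 cells, and the ratio of Irf1 was far smaller. In cells without Ifit1, the Irf1 level still differed between the libraries (152 and 180 CPM). Myeloid cells with Ifit1, 6.48% and 8.4% of the class, held 2.50 and 2.38 more of the Ifit and Oas list on the log2 scale and 0.60 and 0.92 more of the Irf1 and GTPase list.

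**Figure D4:**
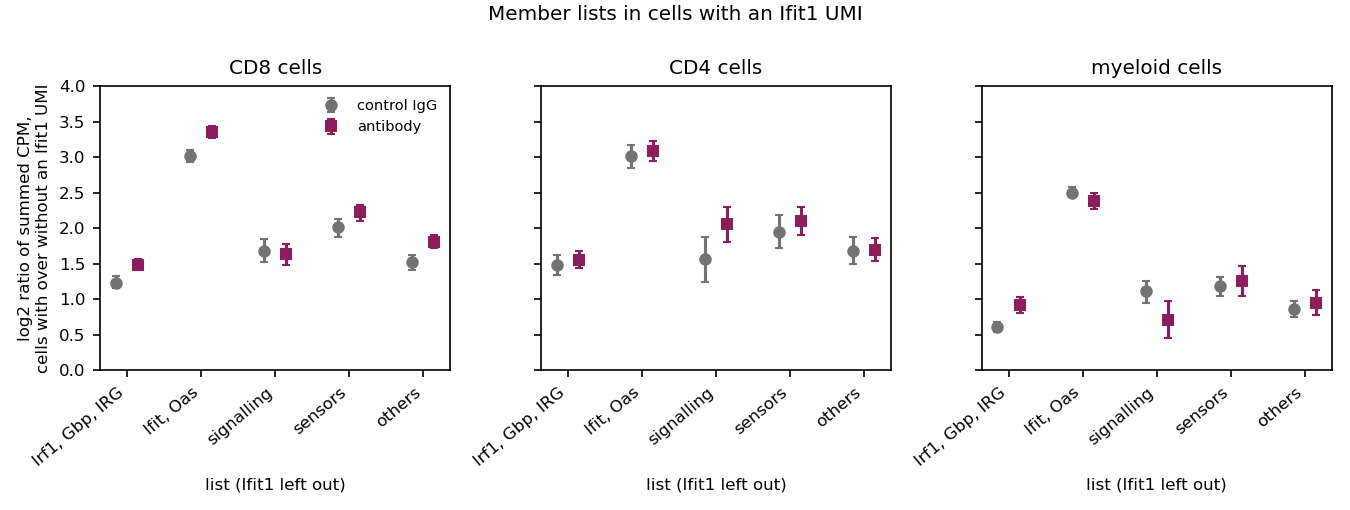
Log2 ratio of the summed CPM of each group of genes (horizontal axis, Ifit1 left out) in cells with an Ifit1 UMI over cells without, in CD8, CD4 and myeloid cells. Grey circles are control IgG, purple squares the antibody, and bars 95% intervals for counting error. The Ifit and Oas list stands highest in each panel, at 3.02 and 3.35 in CD8 cells, against 1.23 and 1.48 for the Irf1, Gbp and IRG genes.

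Of 24 further genes of the interferon pathway, 23 were analysed, and Cxcl11 was not analysed here. Among the ligands, Ifna2 and Ifna4 had at most 2 UMIs in any class and library. Ifnb1 had 21 and 0 UMIs in myeloid cells, 2 and 7 in dendritic cells and 5 and 17 in cancer-like cells, too few to be measured. Ifng was highest in T cells and NK cells, at 122 CPM with control IgG and 134 CPM with the antibody in CD8 cells (log2 ratio 0.14, 0.05 to 0.22), at 169 and 229 CPM in CD4 cells (0.44, 0.31 to 0.57) and at 146 and 127 CPM in NK cells (-0.20, -0.49 to 0.09), while B cells held 8.46 and 8.58 CPM. Fibroblasts had 37 and 324 Ifng UMIs (6.98 and 74.3 CPM), held by 17 of 269 and 13 of 272 cells. Ifng UMIs were found in 2.05% and 1.11% of myeloid cells, and summed T cell markers in fibroblasts stood at 159 and 94 CPM, whose part in the Ifng value was not tested.

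Of the receptor chains and kinases, Ifnar1, Ifnar2, Ifngr1, Jak1, Jak2 and Tyk2 were within 1.5-fold wherever measured, and Ifngr2 past it in B cells alone (36.6 and 65.2 CPM). In CD4 cells 5 of 19 measured pathway genes were higher and 0 lower, beside 4.17% and 3.07% of all measured genes. They were Irf8 (25.9 and 53.9 CPM, 1.06, 0.75 to 1.37), Socs1 (46.3 and 86.1 CPM, 0.89, 0.66 to 1.13), which blocks JAK kinases, Cxcl10 (0.78), Ciita (0.74, -0.03 to 1.51) and Irf5 (0.63). Summed markers of conventional dendritic cells in the CD4 class stood at 11.3 and 23.5 CPM, and in the dendritic class Irf8 stood at 553 and 667 CPM, Ciita at 175 and 174, Irf5 at 180 and 135 and Cxcl10 at 189 and 245 CPM. Myeloid markers in the CD4 class went the other way, at 32.8 and 16.3 CPM, and plasmacytoid markers stood at 34.8 and 30.7 CPM. The part of dendritic or myeloid cells in the CD4 values was not tested. In CD8 cells 0 of 20 passed 1.5-fold in either direction (2.90% and 3.23% of all genes). Myeloid cells had 1 of 20 higher, Socs1 (63.8 and 102 CPM), and 2 lower, Ifng and Cxcl9, where 7.27% and 5.53% of all genes were, so the higher count was no more than the background. Cxcl9, a chemokine that draws T cells and is induced mainly by IFN-γ, stood at 438 and 230 CPM in myeloid cells (-0.93, -1.03 to -0.83), 490 and 233 CPM in fibroblasts (-1.07, -1.18 to -0.96) and 9.95 and 4.95 CPM in cancer-like cells (-1.01, -1.37 to -0.65). Its relative Cxcl10 stood at 250 and 245 CPM in myeloid cells and 73.6 and 163 CPM in cancer-like cells (1.14, 1.05 to 1.23), so these chemokines had opposite signs in the cancer-like class. Fibroblasts had 1 of 19 pathway genes higher (Ifng) and 4 lower (Cxcl9, Irf8, Irf5 and Nlrc5), where 6.57% and 5.08% of all genes were. Cancer-like cells had 1 of 19 higher (Cxcl10) and 2 lower (Cxcl9 and Ciita), beside 2.94% and 5.61%. NK cells had 1 of 15 higher (Socs1) beside 4.44%, B cells 3 of 16 higher (Socs3, Irf8 and Ifngr2) beside 9.94%, and dendritic cells 0 of 19 in either direction beside 4.18% and 4.76%.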

How the data were processed

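The deposited files held whole UMI counts per gene and barcode, which the authors made with Cell Ranger on mouse build mm10, with no normalization. The labels give version 7.0.1 of Cell Ranger and the file header version 4, and the labels and the study's methods name different 3′ chemistries. Dead cells and erythrocytes had been removed from the tissue, without selection of a cell type. Raw barcodes were filtered to 1000 to 8500 genes, 1000 to 100000 UMIs and a mitochondrial share of at most 10%. No doublet caller was run.

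Each cell was scored for each class as the mean of ln(1 + UMIs per 10000) over the 3 highest of its markers. It was assigned where at least 2 markers had a UMI and the score was at least 1.5 times that of the next class, which left 610 and 533 cells out. UMIs were summed per class and library and divided by the total of the class. With 1 library per group no test was possible. Intervals (95%) cover counting error only, and reads of the same molecule share a UMI. A count of 0 was set to 3 counts where a ratio was taken. Computations used Python 3.11.15, numpy 2.4.6, scipy 1.17.1, pandas 2.3.3 and matplotlib 3.10.9. The ratio and interval steps were tested on simulated data, and the thinning step was not.

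Genes were named by 3 rules: the highest level in each functional group, up to 3 of the largest and 3 of the smallest ratios per class among those past 1.5-fold with an interval without 0, and Irf1, Gbp2, Igtp, Ifit3, Isg15, Oasl2 and Irf7 in every class. Other genes, the split of cells by Ifit1 and the values by kind of myeloid cell were chosen after their values were seen. The members and lists were chosen with earlier results of these data known. Alternatives changed the gate margin, the mitochondrial limit, the minimum of UMIs, the weighting of cells, the centring, the cells kept and the subtraction of free RNA. The values of 1 gene of the pathway list, which is part of the list's counts, are not reported here.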

Additional observations from a re-analysis of the deposited data

How the results depend on the processing

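Of 183 list medians recomputed under an alternative, 179 stayed between the medians of their genes' lower and upper interval bounds. That range is not an interval of the median itself and is wide where UMIs were few. The Ifit and Oas median of NK cells, 0.02, stayed in it at values from -0.25 to 0.64. Of 176 counts of members past 1.5-fold, 147 stayed within 1.5 times. In CD8 cells the medians ranged from 0.19 to 0.32 (Irf1 and GTPase list) and from 0.65 to 0.75 (Ifit and Oas list), with 10 to 14 members higher. In CD4 cells they ranged from 0.31 to 0.39 and from 0.69 to 1.07, with 11 to 17 higher, and in myeloid cells from 0.04 to 0.20 and from 0.36 to 0.59, with 5 to 9 higher. Shares over all genes were not computed under the alternatives, so their counts have no background beside them. Genes of few UMIs can pass 1.5-fold by counting error. With no filter on UMIs the Ifit and Oas median of B cells turned from -1.48 over 1 gene to 0.09. In that setting members higher numbered 16 in NK, 6 in B and 3 in dendritic cells, and members lower 11 in B and 4 in dendritic cells. With at least 20 UMIs, 1 member was higher and 8 lower in B cells and 2 higher in dendritic cells. With a gate margin of 2 the fibroblast GTPase median was -0.38, members higher numbered 3 in NK, 1 in B, 1 in dendritic, 1 in fibroblast and 0 in cancer-like cells, and 1 was lower in B cells. Without the tenth of cells of highest UMIs that median was -0.35, members higher numbered 3 in NK and 1 in dendritic cells, and members lower 1 in CD4, 0 in B and 0 in dendritic cells. As a mean of the CPM of cells it was -0.53, members higher numbered 2 in NK and 1 in dendritic cells, and members lower 1 in CD4, 1 in B, 1 in dendritic, 7 in fibroblast and 1 in cancer-like cells. Centring on all genes gave 4 members lower in B cells. Leaving out the cell with most list UMIs, an alternative chosen after seeing the data, gave 3 higher in NK and 1 in cancer-like cells. Apart from what the filters and cells removed, the cause was not tested. No paired analysis was possible because a single pool of mice stands for either treatment, and for the same reason no replicate could be left out. In NK and B cells 3 and 1 genes of the Ifit and Oas list reached 50 UMIs, so its medians there rest on few genes.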
